A study of Homo sapiens with 12 samples.

Results

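The vascular endothelial growth factor (VEGF) system was described in TeloHAEC, endothelial cells of the human aorta kept in culture as a line by added telomerase, through the mRNA of 9 genes picked by symbol from a table of 35587: the receptors FLT1, KDR and FLT4, the co-receptors NRP1 and NRP2, and the ligands VEGFA, VEGFB, VEGFC and PGF. All 9 were in the table, and 8 of the 9 passed the filter of at least 1 TPM in at least 2 libraries that 13299 genes passed. TPM is transcript abundance scaled to a common total per library and per transcript length, so levels of different genes can be set side by side. The TKO line was edited with Cas9 and a guide to TSPAN14, the NKO line with a guide to NOTCH1, and the NT line is the control, which the labels give as wild type. Each targeted gene had 1 line, and whether a line is a clone or a pool, and whether NT cells carried Cas9 or a guide, is not given in the sources used here. Cells of every line grew for 24 hours on plates coated with the Notch ligand DLL4 or with IgG, from a solution at 2.5 mg/mL. There were 2 libraries of polyadenylated RNA for each line and coating, 12 in all, called biological replicates in the labels with no word on separate cultures, so p-values measure the spread between these libraries.

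VEGF ligands bind receptor tyrosine kinases on endothelial cells. KDR (VEGFR2) is the main signalling receptor for VEGFA, FLT1 (VEGFR1) binds VEGFA, VEGFB and PGF tightly but signals weakly and also has a secreted form that traps ligand, and FLT4 (VEGFR3) binds VEGFC and is best known in lymphatic endothelium. The neuropilins NRP1 and NRP2 present VEGF ligands to these receptors and also serve as receptors for class 3 semaphorins. In sprouting vessels, VEGFA raises the Notch ligand DLL4 in tip cells, and Notch signalling in neighbouring stalk cells is known to change their VEGF receptor levels. TSPAN14 is a tetraspanin that binds ADAM10, the protease that cleaves Notch receptors.

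Both edited lines still held RNA of the targeted gene. As differences of log2(TPM + 1), TSPAN14 changed by -0.57 in TKO relative to NT cells on IgG and by -0.68 on DLL4 (limma adjusted p = 0.0015 and 0.00039). For NOTCH1, NKO and NT cells were -0.10 apart on IgG (adjusted p = 0.72) and -0.61 apart on DLL4 (0.023), and no protein was measured. NOTCH1 RNA itself rose on DLL4 by 0.55 in NT cells (limma adjusted p = 0.041) and changed by 0.05 in NKO cells (0.98). The gap on DLL4 thus goes with a rise in NT cells that NKO cells did not show. All 10 endothelial markers averaged at least 1 TPM in every group, 0 of 5 epithelial markers did, and the lymphatic markers PROX1 and CCL21 lay below 1 TPM or at 0. The summed level of the 4 lymphatic markers, of which only PDPN and LYVE1 reached 1 TPM, was 51.3 to 80.4 TPM in TKO, 327 to 604 TPM in NKO and 206 to 244 TPM in NT libraries, and most of its difference between lines was in PDPN. LYVE1 alone was lower in both edited lines than in NT cells. It was at 71.9 and 72.0 TPM on DLL4 and 42.1 and 46.4 on IgG in TKO cells. In NKO cells it was at 71.1 and 82.3 on DLL4 and 44.5 and 48.5 on IgG, against 126 and 109 on DLL4 and 73.4 and 64.3 on IgG in NT cells. Of 5 smooth muscle markers ACTA2 and SMTN passed 1 TPM in every group while MYH11 stayed below 1 TPM and DES was at or near 0. The 5 summed to 121 to 129 TPM on DLL4 and 171 to 190 on IgG in TKO cells, 92.3 to 92.4 and 106 to 121 in NKO cells, and 90.3 to 98.1 and 99.7 to 115 in NT cells. SMTN carried most of this sum, with 168 and 151 TPM on IgG in TKO cells. ACTA2 went the other way with the coating in each line. Its DLL4 and IgG values were 29.9 and 23.0 against 20.6 and 19.6 TPM in TKO cells. They were 13.9 and 11.9 against 11.3 and 9.78 in NKO cells, and 22.0 and 20.8 against 12.8 and 14.4 in NT cells. Of 5 leukocyte markers, PTPRC stayed below 1 TPM and CD68 carried the sum, which was 55.0 to 64.5 TPM on DLL4 and 58.2 to 67.8 on IgG in TKO cells, 29.1 to 36.7 and 31.6 to 40.1 in NKO cells, and 44.7 to 45.5 and 43.1 to 53.7 in NT cells. CD14 was at 6.08 and 9.65 TPM on DLL4 and 2.33 and 2.75 on IgG in TKO cells. It was at 0.356 and 1.54 on DLL4 and 0.348 and 0.177 on IgG in NKO cells, and at 0.141 and 0.461 on DLL4 and 0.211 and 0.0423 on IgG in NT cells. The 5 fibroblast markers summed to 1.84 to 2.75 TPM on DLL4 and 1.39 to 2.30 on IgG in TKO cells, 1.94 to 1.98 and 1.82 to 2.22 in NKO cells, and 3.04 to 3.15 and 2.39 to 3.57 in NT cells. The smooth muscle and leukocyte sums were higher in TKO than in NT cells on both coatings, as were VEGFB and PGF, and the part of any marker list in the results below was not tested. TPM keep no read numbers, so the depth is unknown.

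FLT1 was the member that DLL4 raised in all 3 lines. DLL4 libraries held 67.2 and 62.3 TPM in TKO cells, 42.5 and 40.5 TPM in NKO cells and 82.6 and 73.6 TPM in NT cells. IgG libraries held 26.0 and 29.2 TPM in TKO cells, 29.8 and 25.1 TPM in NKO cells and 26.1 and 23.9 TPM in NT cells. Within every line both DLL4 libraries lay above both IgG libraries, the IgG libraries of the 3 lines overlapped, and the DLL4 libraries stood in the order NT, TKO, NKO with no overlap between neighbours. The difference of log2(TPM + 1) between DLL4 and IgG was 1.21 ± 0.11 (SE) in TKO cells (limma adjusted p = 9.6e-05), 0.58 ± 0.11 in NKO cells (adjusted p = 0.037) and 1.60 ± 0.11 in NT cells (adjusted p = 6.6e-06). An exact two-sided permutation test of 2 libraries against 2 has a smallest p of 0.333, so the p-values come from limma over all 12 libraries. In a bulk sample, less RNA per cell and fewer cells with the RNA cannot be told apart.

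The call in NKO cells was the weakest of the 3. It passed under 7 of 20 alternative settings, with an adjusted p of 0.11 with no filter and 0.43 in a fit of the NKO libraries alone. The adjusted p was 0.053 without either NT IgG library, 0.052 without NKO IgG 1, 0.15 without NKO IgG 2, 0.057 without either NT DLL4 library, 0.065 without either TKO DLL4 library, 0.19 without NKO DLL4 1 and 0.16 without NKO DLL4 2. The calls in TKO and NT cells held under all 20. The difference between the NKO and NT responses, tested directly, was -1.02 ± 0.15 (95% interval -1.36 to -0.68, limma adjusted p = 0.014), but it missed the threshold without NT IgG 3 (adjusted p = 0.075), NT DLL4 2 (0.084), NKO DLL4 1 (0.054) or NKO DLL4 2 (0.056). The TKO response differed from the NT response by -0.40 ± 0.15 (95% interval -0.74 to -0.06, adjusted p = 0.25). The TKO response minus the NKO response was 0.62 ± 0.15 (0.28 to 0.96, adjusted p = 0.27). These intervals are not adjusted for the number of genes.

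**Figure D1:**
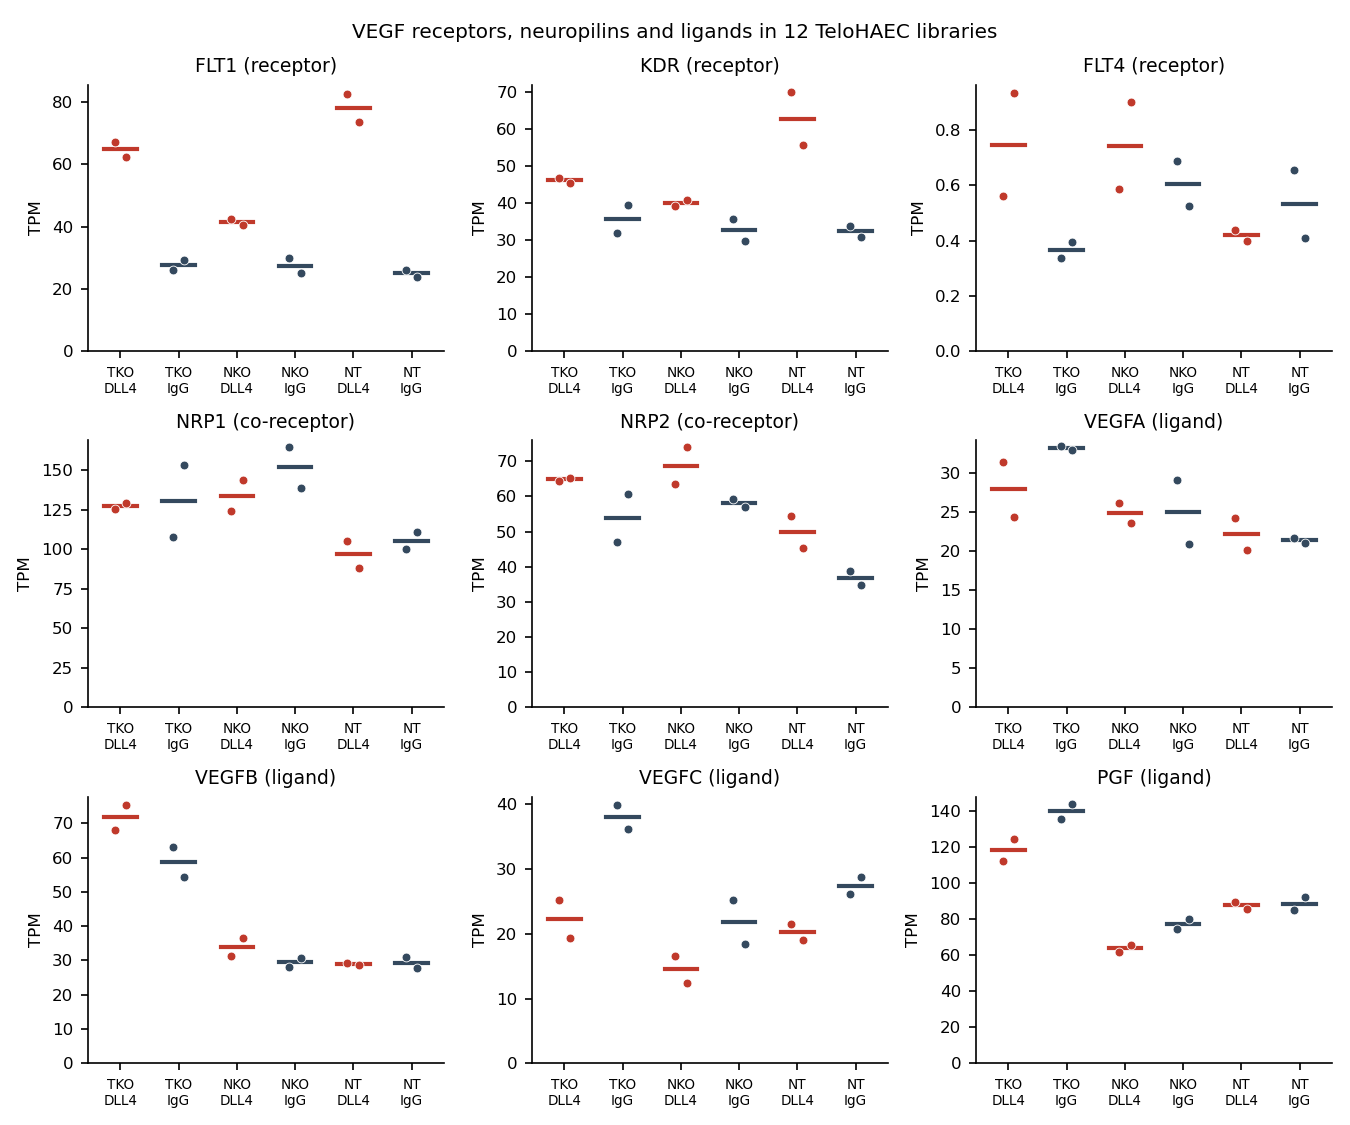
TPM of the 9 VEGF genes in every library, with points for libraries and a line for the mean of each group of 2, by line and coating. FLT1 stands higher on DLL4 in all 3 lines, VEGFB stands higher in all 4 TKO libraries than in the other 8, and FLT4 stays below 1 TPM.

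KDR was the second receptor that DLL4 raised, and only in NT cells did its change pass. Its DLL4 libraries gave 46.7 and 45.3 TPM in TKO cells, 39.3 and 40.7 TPM in NKO cells and 69.9 and 55.5 TPM in NT cells. Its IgG libraries gave 31.8 and 39.4 TPM in TKO cells, 35.7 and 29.6 TPM in NKO cells and 33.8 and 30.9 TPM in NT cells. The DLL4 libraries of each line lay above the IgG libraries of the same line, though by little in NKO cells. The log2 difference was 0.37 ± 0.14 in TKO cells (95% interval 0.07 to 0.67, limma adjusted p = 0.15), 0.29 ± 0.14 in NKO cells (adjusted p = 0.57) and 0.93 ± 0.14 in NT cells (adjusted p = 0.0013). The test of the difference between responses did not pass for TKO minus NT (-0.56 ± 0.19, 95% interval -0.98 to -0.13, adjusted p = 0.21) or for NKO minus NT (-0.64 ± 0.19, -1.06 to -0.21, adjusted p = 0.18).

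Compared on DLL4 alone, both receptors were lower in NKO than in NT cells. FLT1 differed by -0.89 ± 0.11 (limma adjusted p = 0.00024) and KDR by -0.63 ± 0.14 (adjusted p = 0.0083). The KDR call ended without NT DLL4 2 (adjusted p = 0.075) or NKO DLL4 1 (0.056). In TKO cells on DLL4, KDR was lower than in NT cells by 0.43 ± 0.14 on the log2 scale (adjusted p = 0.039), while FLT1 differed by -0.26 ± 0.11 (adjusted p = 0.10). That KDR call passed in 10 of 19 alternatives. It ended without either NT IgG library (adjusted p = 0.051), without NT DLL4 2 (0.28), without TKO DLL4 2 (0.12) or 3 (0.16), and without either NKO DLL4 library (0.053). On IgG, neither receptor differed detectably between an edited line and NT, with differences of 0.12 to 0.13 for FLT1 and 0.01 to 0.13 for KDR.

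The balance of the 2 receptors moved with the coating. The ratio of FLT1 to KDR TPM was 1.41 ± 0.04 on DLL4 and 0.779 ± 0.054 on IgG in TKO cells (SD, n = 2). It was 1.04 ± 0.06 on DLL4 and 0.840 ± 0.008 on IgG in NKO cells, and 1.25 ± 0.10 on DLL4 and 0.774 ± 0.001 on IgG in NT cells. KDR was the more abundant transcript in all 6 IgG libraries, and FLT1 in 5 of 6 DLL4 libraries, the exception being NKO DLL4 2 at a ratio of 0.993. The 3 receptors summed to 112 TPM on DLL4 and 63.5 on IgG in TKO cells, to 82.2 and 60.7 in NKO cells and to 141 and 57.9 in NT cells. The table holds 1 value per gene, and GENCODE 29 gives FLT1 9 transcripts, so the secreted form was not separated from the membrane receptor.

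FLT4 was the one member below the filter. It lay between 0.336 and 0.935 TPM in the 12 libraries, with overlapping ranges for most groups. In a fit with no filter (26931 genes) none of its 10 contrasts passed, with limma adjusted p-values of 0.30 to 0.96. Levels this low give fold changes little precision.

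The sequences around a start site of the 3 members with a DLL4 call in NT cells are shown as the context of that response. FLT1 lies on chromosome 13 (28300344 to 28495145, minus strand), KDR on chromosome 4 (55078259 to 55125595, minus strand) and NRP2 on chromosome 2 (205681990 to 205798133, plus strand) in GENCODE 29 (GRCh38). The windows run from 250 bases before to 50 bases after the start that RefSeq gives in GRCh38.p14, on the strand of the gene. They lie at chr13:28495079-28495378, chr4:55125546-55125845 and chr2:205682251-205682550. The NRP2 window lies wholly inside the gene bounds of GENCODE 29, past the start given there. Capitals mark GGGCGG, the GC box bound by SP1-type factors, on either strand (CCGCCC where it reads on the other), with overlapping matches in 1 run.
FLT1: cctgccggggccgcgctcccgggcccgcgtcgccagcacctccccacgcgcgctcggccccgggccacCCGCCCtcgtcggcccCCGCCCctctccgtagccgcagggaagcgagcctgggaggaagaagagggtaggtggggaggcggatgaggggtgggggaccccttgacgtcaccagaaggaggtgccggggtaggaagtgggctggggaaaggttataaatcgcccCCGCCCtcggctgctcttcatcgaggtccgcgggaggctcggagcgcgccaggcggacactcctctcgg
KDR: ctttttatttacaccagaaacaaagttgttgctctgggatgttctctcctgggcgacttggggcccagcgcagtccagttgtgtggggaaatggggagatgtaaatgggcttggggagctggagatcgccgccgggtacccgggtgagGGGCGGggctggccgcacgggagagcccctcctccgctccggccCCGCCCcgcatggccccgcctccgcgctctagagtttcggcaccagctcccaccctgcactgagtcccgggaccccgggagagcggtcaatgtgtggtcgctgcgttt
NRP2: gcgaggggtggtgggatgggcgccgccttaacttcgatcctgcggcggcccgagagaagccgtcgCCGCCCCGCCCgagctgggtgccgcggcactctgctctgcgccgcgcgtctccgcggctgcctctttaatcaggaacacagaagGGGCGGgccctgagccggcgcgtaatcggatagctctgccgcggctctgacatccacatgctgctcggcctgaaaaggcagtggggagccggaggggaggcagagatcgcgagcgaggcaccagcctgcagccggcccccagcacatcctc
The windows hold 3, 2 and 3 GC boxes in the order printed, and 45.0% of 35116 RefSeq promoter windows of the same length hold at least 1. None of the 3 holds TGGGAA, the core letters read by the Notch effector RBPJ, on either strand, against 24.0% of all windows. None holds CACGTG, an E-box that HEY repressors can bind, against 7.26% of all windows. TGGGAA and CACGTG are also absent from the VEGFB and VEGFC windows, and 1 PGF window holds TGGGAA. These letters being absent here says nothing of binding elsewhere. FLT4, NRP1 and VEGFA were not matched in the promoter table.

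Of the receptors and co-receptors, NRP1 was the most abundant in every library. It stood at 125 and 129 TPM in TKO cells, 124 and 143 TPM in NKO cells and 105 and 88.2 TPM in NT cells on DLL4. Coated with IgG, cells had 108 and 153 TPM in TKO cells, 165 and 139 TPM in NKO cells and 99.8 and 111 TPM in NT cells. The coatings overlapped in all 3 lines. Its DLL4 response was -0.01, -0.18 and -0.13 ± 0.16 in TKO, NKO and NT cells, none passing (adjusted p of 0.65 to 0.99). NRP1 was 0.47 ± 0.16 higher in NKO than in NT cells on DLL4 (limma adjusted p = 0.057) and 0.52 ± 0.16 higher on IgG (adjusted p = 0.058), both short of the threshold. Both passed without TKO IgG 2 or without TKO IgG 3 (0.019). Without TKO IgG 2, NRP1 was also called higher in TKO than in NT cells on IgG (0.022). The same comparison passed on DLL4 without either of these libraries (0.029).

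NRP2 was higher on DLL4 in NT cells and higher in the edited lines on IgG. It stood at 64.4 and 65.3 TPM in TKO cells, 63.6 and 74.0 TPM in NKO cells and 54.4 and 45.4 TPM in NT cells on DLL4. The IgG values were 46.9 and 60.6 TPM in TKO cells, 59.2 and 56.9 TPM in NKO cells and 38.7 and 34.8 TPM in NT cells. Both DLL4 libraries lay above both IgG libraries in every line, and all NT libraries on IgG lay below every other NRP2 value. The DLL4 response was 0.28 ± 0.13 in TKO cells (limma adjusted p = 0.28), 0.24 ± 0.13 in NKO cells (0.64) and 0.43 ± 0.13 in NT cells (0.049). The responses did not differ detectably between lines (-0.15 ± 0.19 for TKO minus NT, -0.19 ± 0.19 for NKO minus NT).

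The NT call for NRP2 sat at the threshold and passed under 6 of 20 alternatives. Its adjusted p was 0.089 without NT IgG 2, 0.25 without NT IgG 3, 0.29 without NT DLL4 2, 0.056 without NT DLL4 3, 0.059 and 0.058 without NKO IgG 1 and 2, 0.074 without either TKO DLL4 library and 0.053 without either NKO DLL4 library. On IgG, NRP2 was 0.53 ± 0.13 higher in TKO than in NT cells (adjusted p = 0.012; 0.089 without NT IgG 3 and 0.11 without TKO IgG 3). It was 0.65 ± 0.13 higher in NKO than in NT cells (adjusted p = 0.0095; 0.088 without NT IgG 3 and 0.063 without NKO IgG 1). On DLL4 the NKO difference was 0.46 ± 0.13 (adjusted p = 0.031; 0.22 without NT DLL4 3 and 0.18 without NKO DLL4 2), and the TKO difference of 0.38 ± 0.13 did not pass (0.055). That TKO difference passed with a minimum mean of 5 TPM (0.043), with median-of-ratios rescaling (0.049), without NT DLL4 2 (0.044) and without TKO IgG 2 or 3 (0.027).

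The ratio of NRP1 to NRP2 was nearly the same in all 6 DLL4 libraries. It averaged 1.96 ± 0.02 on DLL4 and 2.41 ± 0.16 on IgG in TKO cells, 1.94 ± 0.01 on DLL4 and 2.61 ± 0.24 on IgG in NKO cells, and 1.94 ± 0.01 on DLL4 and 2.88 ± 0.43 on IgG in NT cells (SD, n = 2). Every DLL4 library lay below every IgG library, and the 6 IgG libraries spread from 2.30 to 3.19. No test was made of this ratio.

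**Figure D2:**
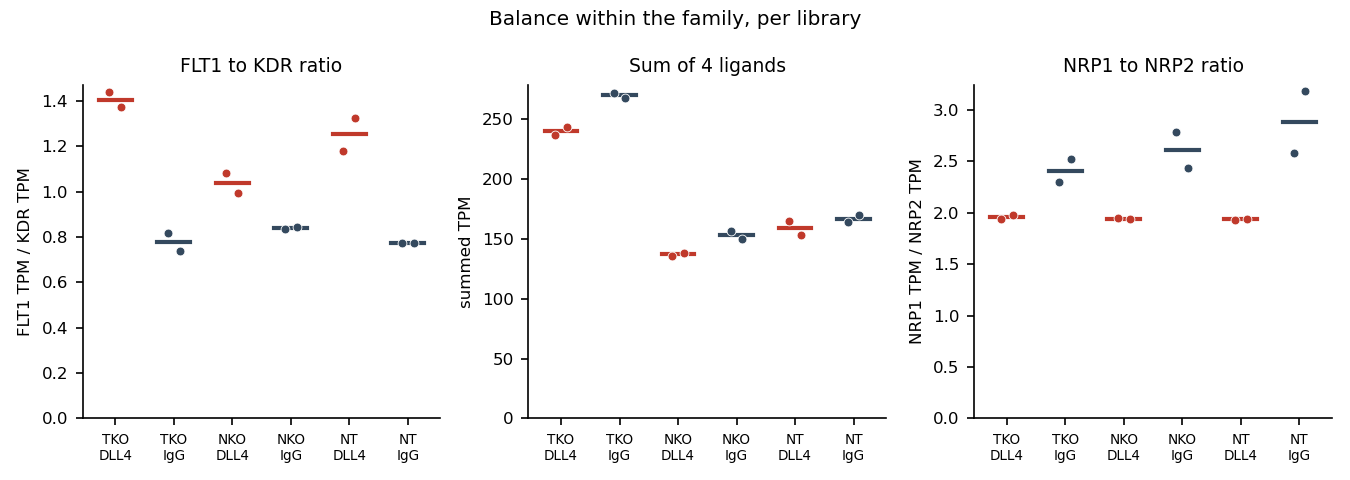
FLT1 to KDR ratio of TPM, summed TPM of VEGFA, VEGFB, VEGFC and PGF, and NRP1 to NRP2 ratio of TPM in every library, with points for libraries and a line for the mean of each group of 2. The FLT1 to KDR ratio is higher on DLL4 in each line, the ligand sum is highest in TKO cells, and the NRP1 to NRP2 ratio lies between 1.93 and 1.98 in all DLL4 libraries.

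In all, DLL4 against IgG called 1 member higher and 1 lower of 8 tested in TKO cells, where 6.51% of all tested genes were called, 4.11% of them higher and 2.41% lower. In NKO cells it called 1 higher and 0 lower, against 0.782% of genes called, 0.511% higher and 0.271% lower. In NT cells it called 3 higher and 0 lower, against 16.0% called, 7.68% higher and 8.34% lower. Of the ligands, VEGFC in TKO cells gave the one call. The difference of responses called 0 members for TKO minus NT, where 0.526% of genes were called, 0.196% higher and 0.331% lower. For NKO minus NT it called FLT1 as 1 lower and 0 higher, against 0.887% of genes, 0.316% higher and 0.571% lower. For TKO minus NKO it called 0, against 0.150%, with 0.0827% higher and 0.0677% lower. At an unadjusted p under 0.05, limma gave 2 members lower for TKO minus NT (FLT1 and KDR), 2 lower for NKO minus NT and 1 higher for TKO minus NKO. For the coating itself the unadjusted counts were 3 higher and 2 lower in TKO, 1 higher and 2 lower in NKO, and 3 higher and 1 lower in NT cells.

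**Figure D3:**
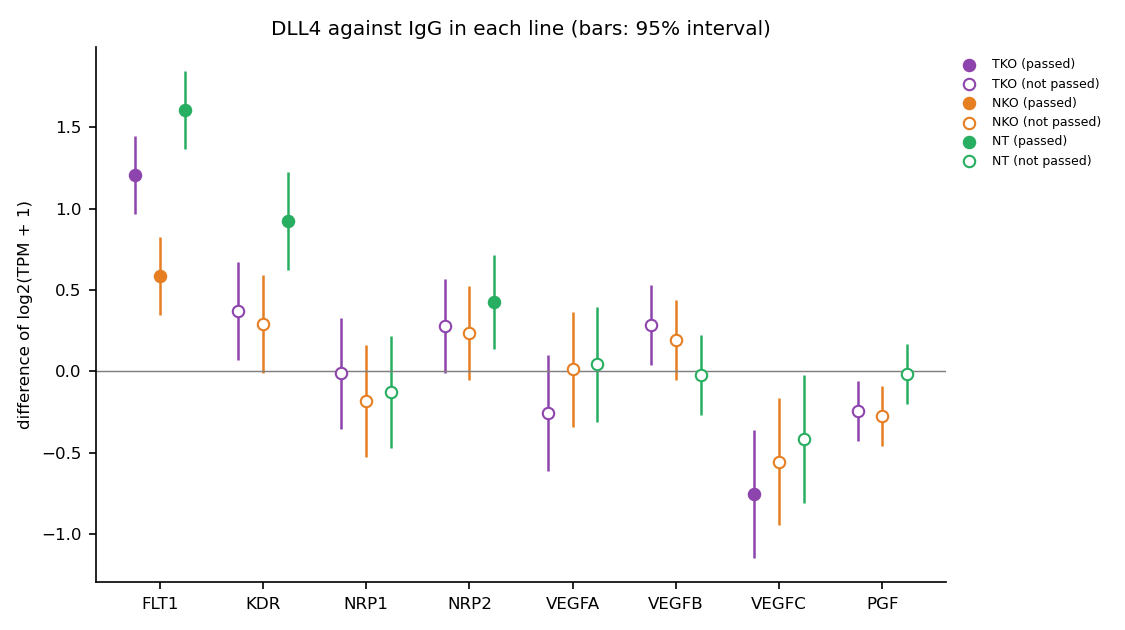
Difference of log2(TPM + 1) between DLL4 and IgG for the 8 tested members in TKO, NKO and NT cells, with 95% intervals and filled points where the limma adjusted p was under 0.05. The receptors FLT1 and KDR lie furthest above 0, and VEGFC lies furthest below 0 in each line, with a call in TKO cells.

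VEGFC, the ligand of FLT4 that drives lymphatic growth, was lower on DLL4. Levels on DLL4 were 25.1 and 19.4 TPM in TKO cells, 16.6 and 12.4 TPM in NKO cells and 21.5 and 19.1 TPM in NT cells. Levels on IgG were 39.8 and 36.2 TPM in TKO cells, 25.2 and 18.4 TPM in NKO cells and 26.1 and 28.7 TPM in NT cells. The coatings did not overlap in any line. It fell by 0.75 ± 0.18 on the log2 scale in TKO cells (limma adjusted p = 0.030), and its responses of -0.55 in NKO cells (adjusted p = 0.29) and -0.41 in NT cells (0.15) did not pass. The TKO call ended without TKO IgG 2 (adjusted p = 0.12), TKO IgG 3 (0.086) or TKO DLL4 3 (0.24). Against NT on the same coating, no VEGFC difference passed in either edited line (-0.47 to 0.46, adjusted p of 0.082 to 0.69). Other settings moved 2 of these past the threshold: NKO against NT on DLL4 with median-of-ratios rescaling (0.036) or quantile normalisation (0.034), and TKO against NT on IgG without KPNA2P2 (0.0486) or with the compared libraries alone (0.0485).

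PGF, placental growth factor, a ligand of FLT1 but not of KDR, was the most abundant ligand, with 45.6% to 55.8% of the summed TPM of the 4 ligands in every library. On DLL4 it reached 112 and 124 TPM in TKO cells, 61.9 and 65.7 TPM in NKO cells and 89.9 and 85.6 TPM in NT cells. On IgG it reached 136 and 144 TPM in TKO cells, 74.4 and 80.2 TPM in NKO cells and 85.2 and 92.3 TPM in NT cells. TKO lay above NT and NT above NKO on both coatings without overlap. PGF was higher in TKO than in NT cells by 0.65 ± 0.08 on IgG (limma adjusted p = 0.00021) and 0.43 ± 0.08 on DLL4 (0.0029), and lower in NKO than in NT cells on DLL4 by 0.45 ± 0.08 (0.0035). On IgG the NKO difference was -0.20 ± 0.08 (0.17). These 3 calls held under all alternatives, and the DLL4 responses of PGF (-0.24, -0.27 and -0.02 in TKO, NKO and NT cells) did not pass.

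VEGFA, the central ligand of KDR, had no detectable response to DLL4. Its level on DLL4 was 31.5 and 24.4 TPM in TKO cells, 26.2 and 23.7 TPM in NKO cells and 24.2 and 20.1 TPM in NT cells. Its level on IgG was 33.5 and 33.0 TPM in TKO cells, 29.1 and 21.0 TPM in NKO cells and 21.7 and 21.0 TPM in NT cells. The coatings overlapped in NKO and NT cells. The responses were -0.25, 0.01 and 0.04 ± 0.16 in TKO, NKO and NT cells. VEGFA was 0.61 ± 0.16 higher in TKO than in NT cells on IgG (limma adjusted p = 0.015), and the call was lost without NT IgG 2 (0.061), NT IgG 3 (0.080), TKO IgG 2 (0.055) or TKO IgG 3 (0.062). The difference of 0.32 on DLL4 did not pass (0.19). GENCODE 29 gives VEGFA 32 transcripts, and the matrix-bound and soluble forms were not separated.

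VEGFB, a ligand of FLT1 linked to fatty acid uptake, was higher in TKO cells than in either of the other lines. The DLL4 values were 68.0 and 75.4 TPM in TKO cells, 31.2 and 36.5 TPM in NKO cells and 29.2 and 28.7 TPM in NT cells. The IgG values were 63.1 and 54.4 TPM in TKO cells, 28.1 and 30.8 TPM in NKO cells and 31.0 and 27.8 TPM in NT cells. The lowest TKO library lay above the highest library of the other 2 lines. Against NT the difference in TKO cells was 0.97 ± 0.11 on IgG (limma adjusted p = 9.3e-05) and 1.28 ± 0.11 on DLL4 (1.0e-05), under all alternatives. In NKO cells it was 0.00 on IgG and 0.21 on DLL4 (adjusted p = 1.0 and 0.21).

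VEGFB lies on chromosome 11 (64234538 to 64238793, plus strand, GRCh38), and most genes of that chromosome were higher in TKO cells. Of 732 tested genes there, 485 were higher and 28 lower in TKO than in NT cells on IgG, and 479 higher and 33 lower on DLL4, with median log2 differences of 0.51 and 0.54. Over all genes tested the medians were 0.04 and 0.03. Of all genes, 15.2% were called higher and 12.4% lower on IgG, and 16.1% and 10.5% on DLL4. Within 1 Mb of VEGFB, 42 of 48 tested neighbours were higher and 1 lower on IgG (median 0.57), and 40 were higher and 0 lower on DLL4 (median 0.68). In NKO cells the median of chromosome 11 was 0.05 on IgG and 0.06 on DLL4. Of its 732 tested genes, 70 were higher and 44 lower on IgG, and 108 and 74 on DLL4. Of the 48 neighbours, 0 were higher and 4 lower on IgG, and 3 were higher and 9 lower on DLL4. The shares over all genes in NKO against NT cells were 4.92% higher and 5.74% lower on IgG, and 11.4% and 9.31% on DLL4. In TKO cells VEGFB stood 0.46 above the chromosome's median on IgG and 0.73 above it on DLL4, with 15.3% and 8.47% of the chromosome's genes showing a larger difference. The chromosomes of the other members had medians between -0.05 and 0.05 in TKO against NT cells on both coatings, among them chromosome 14, which holds PGF (0.05 and 0.02). The part of this chromosome-wide difference in the VEGFB result was not tested.

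**Figure D4:**
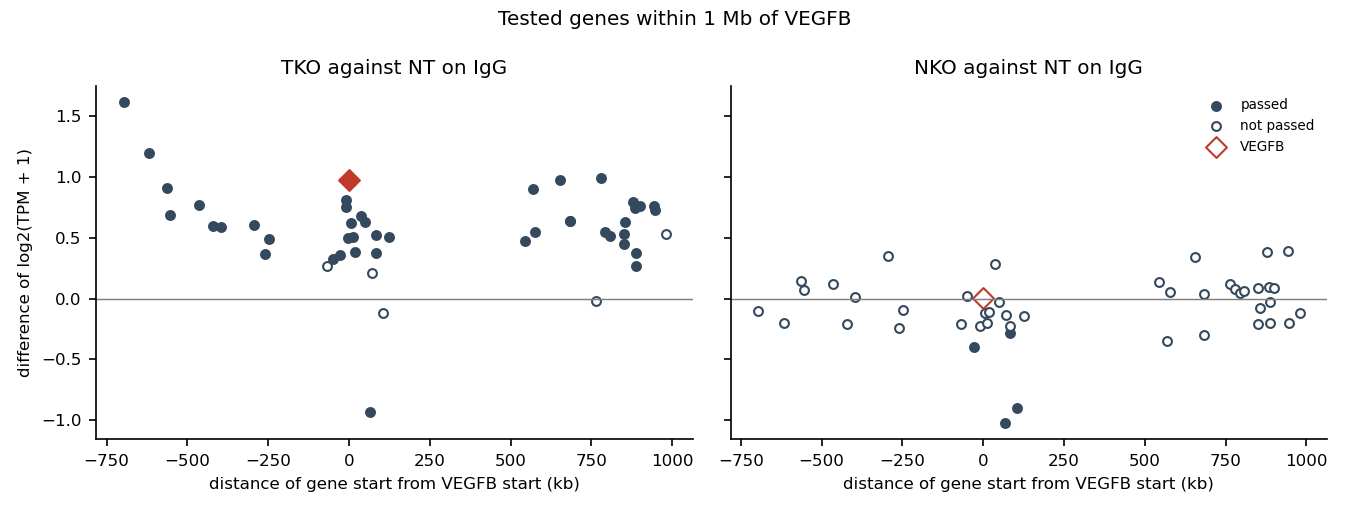
Difference of log2(TPM + 1) of tested genes within 1 Mb of VEGFB, in TKO against NT cells on the left and NKO against NT cells on the right, both on IgG, by distance of the gene start from the VEGFB start in kb, with filled points where the limma adjusted p was under 0.05. Most neighbours lie above 0 in TKO cells (42 of 48 called higher), and none was called higher in NKO cells. Over all tested genes, 15.2% were called higher in TKO and 4.92% in NKO cells.

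Over the whole set, TKO against NT called 4 members higher and 0 lower on IgG, with 27.6% of all genes called, 15.2% higher and 12.4% lower. On DLL4 it called 2 higher and 1 lower, with 26.6% called, 16.1% higher and 10.5% lower. NKO against NT called 1 higher and 0 lower on IgG (10.7% of genes called, 4.92% higher and 5.74% lower) and 1 higher and 3 lower on DLL4 (20.7%, 11.4% and 9.31%). These contrasts share the NT libraries. The 4 ligands summed to 240.3 ± 4.68 TPM on DLL4 and 270.0 ± 3.25 on IgG in TKO cells, to 137 ± 1.65 and 154 ± 4.55 in NKO cells and to 159 ± 7.97 and 167 ± 4.21 in NT cells (SD, n = 2).

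**Figure D5:**
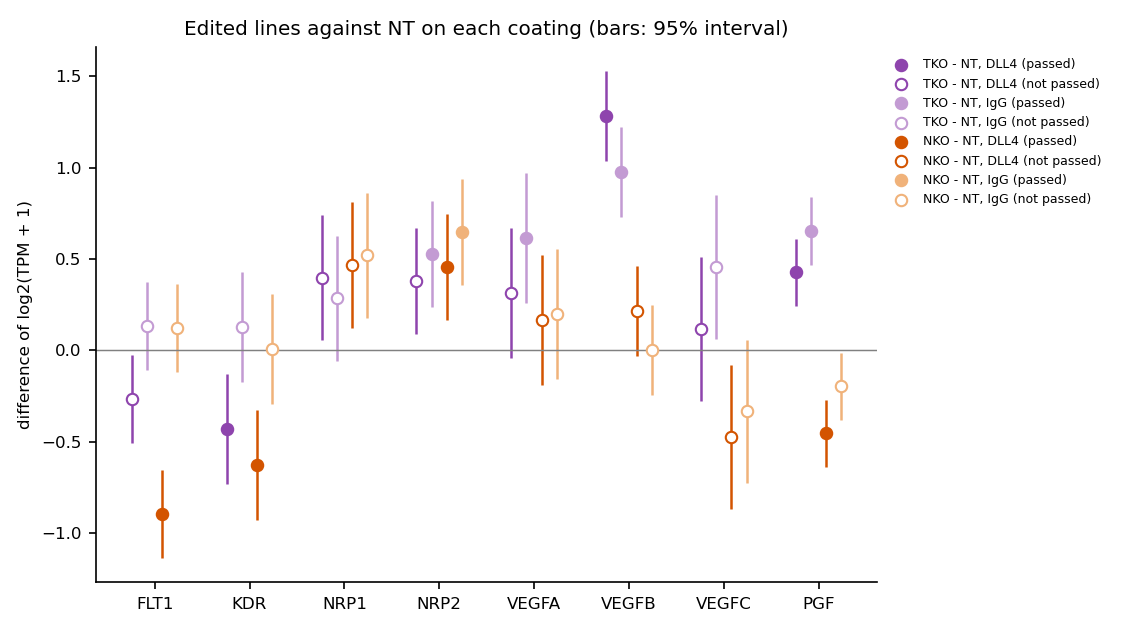
Difference of log2(TPM + 1) between each edited line and NT cells on each coating for the 8 tested members, with 95% intervals and filled points where the limma adjusted p was under 0.05. VEGFB and PGF lie above 0 in TKO cells on both coatings, and FLT1 and KDR lie below 0 in NKO cells on DLL4.

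Genes near each member in pattern over the 6 groups were counted with a fixed cut. The cut was not scaled to the size of a member's changes, so members with larger changes have fewer genes near them by construction. By the root mean square difference of centred group means of log2(TPM + 1), over 9560 genes with a mean of at least 5 TPM, 9 genes lay within 0.2 of FLT1, led by NCOA7 (0.14), a coactivator of nuclear receptors, and S100A3 (0.16), a calcium-binding protein. For KDR 269 genes lay that close, led by TES (0.04), a focal adhesion protein, and SNX18 (0.06), a sorting nexin. For VEGFC there were 25, led by FERMT3 (0.06), an integrin activator, and the receptor gene FGFR1 (0.09). For VEGFB there were 90, led by ARL2 (0.05), a small GTPase that also lies on chromosome 11, and ABCA3 (0.10), a lipid transporter. PGF had 214, led by PHLDB1 (0.08) and MYO1E (0.09), an unconventional myosin. The flatter patterns of NRP2, NRP1 and VEGFA had 495, 2559 and 2290 genes within 0.2, led by RCHY1 and ZNF354B, by ITFG2 and NEMP1, and by ATP11A and FAM122B.

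Next came the semaphorin and plexin partners of the neuropilins. As given above, DLL4 called 4.11% of all tested genes higher and 2.41% lower in TKO cells, 0.511% higher and 0.271% lower in NKO cells, and 7.68% higher and 8.34% lower in NT cells. Of 12 tested partners it called 1 higher in TKO cells, 0 in NKO cells and 3 in NT cells, and 0 lower in any line, with median log2 changes of 0.31, 0.07 and 0.25, where all genes had medians of 0.01. One of the NT calls, SEMA3G, entered the test only through its NT libraries on DLL4, so that call is not read as a result. The other NT calls were PLXND1 and PLXNA1. The NKO counts were 2 higher and 1 lower at an unadjusted p under 0.05 in limma. PLXND1, the plexin that binds SEMA3E, was at 161 and 175 TPM on DLL4 and 90.9 and 80.6 on IgG in TKO cells, and at 288 and 262 on DLL4 and 121 and 110 on IgG in NT cells. It rose by 0.96 ± 0.13 in TKO cells (limma adjusted p = 0.0012) and by 1.25 ± 0.13 in NT cells (0.00011), with a change of 0.50 in NKO cells (0.13). PLXNA1, a partner of NRP1, rose by 0.85 ± 0.17 in NT cells (0.0074). PLXNA2 and PLXNA3 had changes of 0.25 in NT cells that did not pass. PLXNA1 averaged 18.7 TPM on DLL4 and 12.9 on IgG in TKO cells, and 20.1 and 16.5 in NKO cells. PLXNA2 averaged 31.1 and 37.5 in TKO cells, and 37.3 and 42.1 in NKO cells. PLXNA3 averaged 20.5 and 28.5 in TKO cells, and 17.6 and 23.5 in NKO cells.

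Of 42 tested genes that relay the signal inside the cell, DLL4 called 1 higher and 2 lower in TKO cells, 0 and 1 in NKO cells, and 4 and 1 in NT cells, with medians of -0.08, -0.06 and 0.07. Over all tested genes the shares called were 4.11% higher and 2.41% lower in TKO, 0.511% and 0.271% in NKO, and 7.68% and 8.34% in NT cells. SH2D2A, the adaptor TSAd that binds phosphorylated KDR, was lower in all 3 lines. Its level was 0.697 and 0.694 TPM on DLL4 and 6.75 and 5.89 on IgG in TKO cells, 3.52 and 3.33 on DLL4 and 8.91 and 8.80 on IgG in NKO cells, and 9.30 and 10.7 on DLL4 and 50.7 and 58.3 on IgG in NT cells. Its log2 changes were -2.11, -1.15 and -2.33 ± 0.13 in TKO, NKO and NT cells (limma adjusted p = 8.4e-06, 0.0017 and 1.5e-06). Against NT cells on IgG it differed by -2.92 in TKO cells and by -2.49 in NKO cells. PTPRB, the endothelial phosphatase VE-PTP that restrains KDR, rose by 0.67 ± 0.17 in TKO cells (0.046) and by 1.08 ± 0.17 in NT cells (0.0021). The kinase gene FYN rose by 0.75 ± 0.11 in NT cells (0.0014). FYN averaged 123 TPM on DLL4 and 95.5 on IgG in TKO cells, and 61.5 and 57.1 in NKO cells. PTPRB averaged 16.7 TPM on DLL4 and 13.3 on IgG in NKO cells.

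A further list held genes that VEGF is known to switch on early. Of 21 tested, DLL4 called 1 higher and 8 lower in TKO cells, 1 higher and 0 lower in NKO cells, and 2 higher and 7 lower in NT cells, with medians of -0.44, -0.15 and 0.00. The shares over all genes were 4.11% higher and 2.41% lower, 0.511% and 0.271%, and 7.68% and 8.34% in the same lines. In NKO cells 1 was higher and 7 were lower at an unadjusted p under 0.05 in limma. RCAN1, a calcineurin inhibitor and a classic VEGF target, fell by 0.65 ± 0.10 in TKO cells (limma adjusted p = 0.0034) and by 0.62 ± 0.10 in NT cells (0.0026). SPRY2, an inhibitor of receptor tyrosine kinase signalling, fell by 0.95 ± 0.18 in TKO cells (0.012) and by 0.96 ± 0.18 in NT cells (0.0057). The homeobox gene HLX changed by -1.45 ± 0.25 in TKO cells (0.0066) and by -1.74 ± 0.25 in NT cells (0.0012). In NKO cells RCAN1 averaged 24.8 TPM on DLL4 and 30.5 on IgG, SPRY2 17.6 and 28.9, and HLX 1.62 and 2.67. None of these was called there. DUSP6, a phosphatase of ERK, went the other way. Its level was 149 and 147 TPM on DLL4 and 53.5 and 65.1 on IgG in TKO cells, 113 and 115 on DLL4 and 69.0 and 61.6 on IgG in NKO cells, and 152 and 139 on DLL4 and 57.1 and 57.6 on IgG in NT cells. It rose by 1.31, 0.80 and 1.32 ± 0.10 in TKO, NKO and NT cells (2.6e-05, 0.0030 and 1.2e-05).

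Among 13 tested genes for maturation of VEGFC and release of VEGF from matrix, DLL4 called 4 higher and 2 lower in TKO cells, 0 and 2 in NKO cells, and 5 and 3 in NT cells, with medians of -0.04, -0.10 and 0.27. For all genes these shares were 4.11% and 2.41% in TKO, 0.511% and 0.271% in NKO, and 7.68% and 8.34% in NT cells. HPSE, heparanase, which frees growth factors from heparan sulphate, was at 19.4 and 21.0 TPM on DLL4 and 48.0 and 54.2 on IgG in TKO cells, at 10.3 and 9.01 on DLL4 and 17.0 and 14.4 on IgG in NKO cells, and at 8.86 and 8.50 on DLL4 and 14.9 and 16.5 on IgG in NT cells. Its log2 changes were -1.30, -0.65 and -0.78 ± 0.12 in TKO, NKO and NT cells (limma adjusted p = 0.00011, 0.035 and 0.0016). PLAT, tissue plasminogen activator, changed by -1.36, -0.64 and -0.90 ± 0.07 (2.2e-06, 0.0016 and 1.9e-05). HSPG2, which encodes perlecan, rose by 0.79 ± 0.12 in TKO cells (0.0030) and by 0.93 ± 0.12 in NT cells (0.00060). CCN2, whose matrix protein binds VEGFA, rose by 1.08 ± 0.10 in TKO cells (0.00013) and by 1.14 ± 0.10 in NT cells (4.7e-05). In NKO cells HSPG2 averaged 566 TPM on DLL4 and 425 on IgG, and CCN2 751 and 570, with no call.

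The last list held genes of oxygen sensing, a known control of VEGFA. Of 27 tested, DLL4 called 1 higher and 3 lower in TKO cells, 0 in NKO cells, and 5 higher and 5 lower in NT cells, with medians of -0.05, 0.00 and -0.01. All genes had shares of 4.11% and 2.41% in TKO, 0.511% and 0.271% in NKO, and 7.68% and 8.34% in NT cells. In NKO cells 2 were higher and 3 lower at an unadjusted p under 0.05 in limma. EPAS1, which encodes HIF-2α, was at 74.9 and 75.0 TPM on DLL4 and 26.1 and 40.6 on IgG in TKO cells, and at 184 and 159 on DLL4 and 62.3 and 64.6 on IgG in NT cells. It rose by 1.18 ± 0.16 in TKO cells (limma adjusted p = 0.0017) and by 1.42 ± 0.16 in NT cells (0.00025), with a change of 0.33 in NKO cells (0.59). ADM, adrenomedullin, was at 34.3 and 33.6 TPM on DLL4 and 47.6 and 51.9 on IgG in TKO cells. NKO cells were close to these levels, with 32.7 and 38.2 on DLL4 and 45.3 and 52.9 on IgG. In NT cells ADM was at 22.5 and 20.8 on DLL4 and 57.0 and 58.3 on IgG. Its changes of -0.54 ± 0.11 in TKO cells (0.012) and -1.38 ± 0.11 in NT cells (1.6e-05) both passed, as did the difference of these responses (0.84 ± 0.15, 0.034). In NKO cells ADM averaged 35.5 TPM on DLL4 and 49.1 on IgG, with no call. A smaller fall than in NT cells was thus not particular to TKO cells. The glycolytic enzyme gene LDHA (-0.59 ± 0.07, 0.00051) and BNIP3, a mitophagy receptor (-0.65 ± 0.12, 0.0047), fell in NT cells. LDHA averaged 1245 TPM on DLL4 and 1427 on IgG in TKO cells, and 1042 and 1152 in NKO cells. BNIP3 averaged 36.6 and 36.2 in TKO cells, and 23.7 and 34.4 in NKO cells.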

How the data were processed

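Polyadenylated RNA of 12 TeloHAEC libraries was compared, 2 for each of 3 lines on each of 2 coatings. Per the labels, 140 ng of total RNA went into each mRNA preparation. The authors deposited TPM per gene symbol. The tools were kallisto and edgeR, on hg38, per the submitters' processing notes. Which versions and annotation were used, how transcripts were summed to symbols and whether strand was used is not given in the sources used here. Genes annotated antisense to KDR, NRP1, NRP2, VEGFA and VEGFC have no value in the table. Total TPM per library ranged between 974989 and 977130. One pseudogene, KPNA2P2, took 0.280% to 5.61% of a library. Precision is set by the spread between the 2 libraries of a group, pooled over the 6 groups and moderated across genes. A gene thus has the same SE for its DLL4 response in every line. Libraries outside a contrast also enter its p-value.

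NT and TKO columns are numbered 2 and 3 and NKO columns 1 and 2, while the labels number every group 1 and 2, so libraries are named by column number and columns were matched to groups only. Genes that reached 1 TPM in 2 or more libraries entered limma 3.58.1 (R 4.3.3) on the log2(TPM + 1) scale. The model had 1 mean per group over all 12 libraries and a trended empirical Bayes variance. Tests were two-sided with Benjamini-Hochberg adjustment over 13299 genes at 0.05 (6 residual degrees of freedom, 10.8 after moderation). A difference on this scale understates the change of low genes. There were 10 contrasts. The fit was tested on simulated data. Alternatives changed the pseudocount to 0.1, the filter to none or to a mean TPM of at least 5, the scaling to median-of-ratios, to quantiles or to totals without KPNA2P2, and the model to one with the replicate block or to the compared libraries alone. Each library was also left out once.

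The members and gene lists were chosen with earlier results of these data known. All members are named. Of each of the 5 lists, up to 4 genes with the smallest p for DLL4 against IgG in NT cells were named, with a mean of at least 5 TPM in either group. One gene that this rule names is not reported here. For each member, the 2 genes nearest in pattern were named. Positions are from GENCODE 29 (GRCh38) and promoters from RefSeq (GRCh38.p14), with entries for 6 of 9 members. Plots were made in Python 3.11.15 with matplotlib 3.10.9.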

Additional observations from a re-analysis of the deposited data

Results flagged for a closer look

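FLT1 stood out because its DLL4 response differed between lines in a direct test. The response of NKO cells minus that of NT cells was -1.02 ± 0.15 on the log2 scale (limma adjusted p = 0.014), with the DLL4 and IgG values of both lines given in the report. The FLT1 response was positive in both lines, and the difference passed in 16 of 20 alternatives.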

How the results depend on the processing

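The counts of members called moved by more than 1.5 times, or to 0, in 8 comparisons under other settings, and 68 stayed. With 1 library left out, a larger share of the counts moved. For DLL4 against IgG, TKO cells had 1 call with no filter and when the compared libraries were fitted alone, and NKO cells had 0 with no filter, with the replicate block and when the compared libraries were fitted alone. For NKO against NT on IgG there were 2 with a minimum mean of 5 TPM and under quantile normalisation, and for TKO against NT on DLL4 there were 5 with median-of-ratios rescaling. The cause was not tested. Leaving out 1 library at a time gave 1 to 2 calls for DLL4 in TKO, 0 to 1 in NKO, 2 to 3 in NT, 2 to 4 for TKO against NT on IgG, 2 to 5 on DLL4, 0 to 2 for NKO against NT on IgG, 3 to 5 on DLL4, and 0 to 1 for the response of NKO minus NT. FLT1 in TKO and NT responses, KDR in the NT response, VEGFB and PGF in TKO against NT on both coatings, and FLT1 and PGF in NKO against NT on DLL4 passed in every alternative. Other calls ended with no filter (adjusted p of 0.13 for NRP2 in the NT response, 0.11 for VEGFC in the TKO response, 0.057 for VEGFA in TKO against NT on IgG, 0.10 for KDR in TKO against NT on DLL4, 0.092 for NRP2 in NKO against NT on DLL4) or when the compared libraries were fitted alone (0.11 for NRP2 in the NT response, 0.11 for VEGFC, 0.079 for NRP2 in TKO against NT on IgG, 0.068 for KDR, 0.081 for NRP2 in NKO against NT on DLL4). The NRP2 response in NT cells also ended without KPNA2P2 (0.052) and at a pseudocount of 0.1 (0.050). FLT1 was also called lower in TKO than in NT cells on DLL4 with median-of-ratios rescaling (adjusted p = 0.018) and quantile normalisation (0.00996), and NRP1 higher in NKO than in NT cells with a minimum mean of 5 TPM (0.041 on IgG, 0.038 on DLL4) and on IgG with quantile normalisation (0.038). NRP1 was higher in TKO than in NT cells on DLL4 when the compared libraries were fitted alone (0.044), and the calls gained by NRP2 and VEGFC stand beside their results. The median of all genes shifted past 0.1 without NKO IgG 2 (NKO against NT on IgG, 0.12) and without NT DLL4 2 (NKO against NT on DLL4, 0.11).

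Column numbers were not taken to pair the libraries, as the labels name no shared batch. Deviations of same-numbered libraries correlated at 0.016 and -0.00029 in TKO and NT cells, but at 0.28 in NKO cells. The part of a shared replicate in the NKO value was not tested. With the replicate block, members called were 2 in TKO, 0 in NKO (FLT1 adjusted p = 0.052) and 4 in NT cells (VEGFC added, 0.047), and contrasts of lines within a coating could not be fitted.

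Signs reversed in contrasts with no call. In the NKO response, VEGFA was -0.00140 with median-of-ratios rescaling and -0.00659 without KPNA2P2. In NKO against NT on IgG, KDR was -0.0558 and -0.0119 and VEGFB -0.0626 and -0.0338 with median-of-ratios rescaling and quantile normalisation, and PGF was 0.0259 in the NT response with the last of these. Leaving out libraries gave these ranges for responses: VEGFB -0.0951 to 0.0550, PGF -0.0727 to 0.0420 and VEGFA -0.0828 to 0.171 in NT, NRP1 -0.26 to 0.24 in TKO, and VEGFA -0.22 to 0.24 in NKO cells. On IgG they were KDR -0.12 to 0.14, VEGFB -0.0727 to 0.0775 and VEGFA -0.0275 to 0.43 for NKO against NT, and KDR -0.0237 to 0.28 for TKO against NT, and VEGFC was -0.0613 to 0.30 for TKO against NT on DLL4. For differences of responses they were NRP1 -0.14 to 0.36 and NRP2 -0.33 to 0.0322 for TKO minus NT, NRP1 -0.18 to 0.0716, VEGFA -0.26 to 0.19 and VEGFC -0.36 to 0.0778 for NKO minus NT, and KDR -0.0702 to 0.23, NRP1 -0.0828 to 0.42, NRP2 -0.14 to 0.22, PGF -0.0419 to 0.10, VEGFB -0.0160 to 0.20 and VEGFC -0.42 to 0.0171 for TKO minus NKO.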

Other observations

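Outside the rule for named genes, and chosen after their values were seen, 3 genes of the lists are given with their values. SEMA3G, a semaphorin that binds NRP2 and marks arterial endothelium, was at 0.364 and 0.511 TPM on DLL4 and 0.0127 and 0.0373 on IgG in TKO cells, at 0.0491 and 0.243 on DLL4 and 0.0594 and 0.112 on IgG in NKO cells, and at 4.10 and 4.81 on DLL4 and 0.138 and 0.111 on IgG in NT cells. SEMA3G passed the expression filter only through the NT libraries on DLL4, so no test value is given for it. Its call, counted above among the tested partners of the neuropilins, is not read as a result. The urokinase gene PLAU, whose protease frees matrix-bound VEGF, was at 98.3 and 91.5 TPM on DLL4 and 118 and 118 on IgG in TKO cells. It was at 85.0 and 76.1 on DLL4 and 90.7 and 85.6 on IgG in NKO cells, and at 347 and 290 on DLL4 and 230 and 214 on IgG in NT cells. The difference of log2 responses, TKO minus NT, was -0.83 ± 0.14 (limma adjusted p = 0.023). Low PLAU with no rise on DLL4 was thus not particular to TKO cells. PTGS2, the inducible cyclooxygenase, was at 1.86 and 1.62 TPM on DLL4 and 7.85 and 9.14 on IgG in TKO cells. It was at 3.01 and 1.81 on DLL4 and 4.57 and 1.46 on IgG in NKO cells, and at 6.59 and 5.80 on DLL4 and 2.31 and 3.51 on IgG in NT cells. Its difference of log2 responses, TKO minus NT, was -2.69 ± 0.46 (limma adjusted p = 0.029).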
